A study of Mus musculus with 15 samples.

Results

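A set of 9 genes of bone morphogenetic protein (BMP) signalling and the Id family was followed across 5 culture media in mouse embryonic stem cells: the ligand genes Bmp4 and Bmp7, the receptor gene Bmpr1a, the inhibitor genes Smad6 and Bambi, and the target genes Id1, Id2, Id3 and Id4. They were picked out by symbol, and each matched 1 row among the 49585 genes of the count table, so that 9 of 9 were found. All 9 passed the filter on low counts and belonged to the 15223 genes tested. Wild-type E14 cells, a mouse embryonic stem cell line, supplied all 15 libraries, 3 per medium, and poly(A)-selected RNA was sequenced. Before the experiment the line was kept on gelatin with the MEK inhibitor PD0325901 at 0.4 µM, the GSK3 inhibitor CHIR99021 at 3 µM, and Lif, a cytokine that sustains self-renewal, at 4 ng/ml. All groups were then embedded in growth factor reduced Matrigel, a basement membrane gel, at a density of 2000 cells/µl, under N2B27 medium. The groups differed in what this medium carried: 2iLif, FGF2/Activin (also written FAK in the labels), PD032, Aurka inh, or PD032+ Aurka inh, named the combination below. The labels do not expand PD032, give no compound name for Aurka inh, and state neither dose nor duration for the groups. No medium without an addition was sampled, and no BMP protein or BMP inhibitor is listed for any group.

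BMP ligands bind a complex of type I receptors such as Bmpr1a and type II receptors on the cell surface. The receptors phosphorylate Smad1, Smad5 and Smad9, which enter the nucleus with Smad4 and activate target genes, the Id genes foremost among them. Id proteins have a helix-loop-helix domain but no DNA-binding region, so they hold their partners, the E proteins, off DNA. In mouse embryonic stem cells BMP4 acts together with Lif to hold back neural differentiation, and Id induction is a known part of that action. Smad6 and Bambi belong to the negative feedback of the pathway, Smad6 inside the cell and Bambi at the receptor.

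Positions are those of GENCODE M21 on mm10, the build named in the submitters' processing notes. Bmp4 (ENSMUSG00000021835) spans 46383520 to 46390669 and Bmpr1a (ENSMUSG00000021796) 34410734 to 34503341, both on chromosome 14. Bmp7 (ENSMUSG00000008999) spans 172868012 to 172940321 and Id1 (ENSMUSG00000042745) 152736251 to 152737410, both on chromosome 2. Smad6 (ENSMUSG00000036867) lies on chromosome 9 from 63953076 to 64022059. Bambi is ENSMUSG00000024232. Id2 (ENSMUSG00000020644) lies on chromosome 12 from 25093799 to 25097140, Id3 (ENSMUSG00000007872) on chromosome 4 from 136143497 to 136145755, and Id4 (ENSMUSG00000021379) on chromosome 13 from 48261228 to 48266026. All are protein-coding, and counts cover the whole gene. The strand setting of the counting is not given in the sources used here, so overlapping transcripts may add to a count. A processed pseudogene of Bambi, Bambi-ps1, is annotated elsewhere, and how shared reads were assigned is not known.

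Windows of 300 bases at the RefSeq start sites, from 250 before to 50 after the start site, were used for 6 of the 9 genes. They came from the promoter table of RefSeq (GRCm38.p6) and covered Id2, Id3, Id4, Bmp4, Bmpr1a and Smad6. No window of Id1, Bmp7 or Bambi was used. The motifs were searched on both strands. GGCGCC is a GC-rich element to which Smad1 and Smad5 complexes bind in BMP target genes. CAGAC, which reads as its reverse complement GTCTG on the opposite strand, is the short Smad-binding element. GTCTAGAC is the palindromic Smad element. None of these motifs overlapped another in the windows. Of 32851 promoter windows of this length, 11.9% held GGCGCC, 49.6% CAGAC and 0.213% GTCTAGAC. GGCGCC was present in Id2 at bases -231 to -226 from the start site, in Id4 at -148 to -143 and in Bmpr1a at -198 to -193. Id3 held CAGAC at -167 to -163 and GTCTG at -68 to -64, and Smad6 held the palindrome across the start site, at -4 to 4. The Bmp4 window held none of the letters searched. GENCODE M21 starts some of these genes further upstream: 250 of the 250 bases before the start site lie in its exons for Id3, 161 for Id2 and 141 for Bmpr1a, and none for Id4, Bmp4 and Smad6. The Id2 stretch below thus lies within the gene outside its exons and the Id3 stretch within an exon. The stretches, shown because they hold the matches beside the Id genes and Smad6, run 5′ to 3′ on the gene's strand with matches in capitals. Id2 is shown at chr12:25096254-25096342 (minus strand), Id3 at chr4:136143742-136143771 (plus), Id4 at chr13:48260866-48261135 (plus) and Smad6 at chr9:64022040-64022309 (minus).
Id2: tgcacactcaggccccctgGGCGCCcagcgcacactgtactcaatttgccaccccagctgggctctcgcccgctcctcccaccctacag
Id3: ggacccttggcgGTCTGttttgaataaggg
Id4: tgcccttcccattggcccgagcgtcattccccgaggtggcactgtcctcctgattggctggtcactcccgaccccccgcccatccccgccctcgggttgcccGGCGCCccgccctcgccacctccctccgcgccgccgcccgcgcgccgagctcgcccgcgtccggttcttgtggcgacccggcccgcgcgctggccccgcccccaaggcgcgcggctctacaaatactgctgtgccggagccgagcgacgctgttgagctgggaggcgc
Smad6: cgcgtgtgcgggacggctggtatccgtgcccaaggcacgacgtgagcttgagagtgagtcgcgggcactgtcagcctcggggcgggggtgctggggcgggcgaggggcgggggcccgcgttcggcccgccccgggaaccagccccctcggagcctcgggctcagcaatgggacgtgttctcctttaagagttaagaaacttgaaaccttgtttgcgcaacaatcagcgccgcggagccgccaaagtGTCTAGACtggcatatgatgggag
Id2 and Id4, which carry the same GC-rich letters, were at opposite ends of their range in FGF2/Activin, as given below. A match is a description of letters and does not show binding.

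Library totals ran from 15199507 to 24202544 counts, and values are CPM, counts scaled to the TMM-adjusted library total, given as mean ± SD over n = 3 libraries. Fold changes are log2 values from edgeR, and a gene passed at an adjusted p under 0.05 over all genes tested. No label says that replicates came from separate cultures, so p-values measure only the spread between libraries, which may be technical. Markers of embryonic stem cells (8 genes, among them Pou5f1 and Sox2) summed to between 2400 and 3280 CPM in every library. Single markers were less even than the sum. From 2iLif to FGF2/Activin, Sox2 (503 to 172 CPM) and Zfp42 (461 to 42.8) fell, and Utf1 (154 to 576) and Dppa4 (59.2 to 125) rose. Tdgf1 held 429 CPM in 2iLif and 42.8 in PD032. Libraries of 2iLif and FGF2/Activin are named in another style than the inhibitor libraries, so for the 3 comparisons of an inhibitor group with 2iLif a possible batch cannot be told apart from the medium. Within the inhibitor groups, equal replicate numbers deviated together. The spread was estimated over all groups, whose biological coefficient of variation ran from 1.78% in FGF2/Activin to 11% in Aurka inh. In bulk RNA, fewer expressing cells and less RNA per cell cannot be told apart.

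Bmp4 was high in 2iLif and low in the other media. Its 3 libraries held 54.9, 54.3 and 52.7 CPM in 2iLif, 6.82, 6.57 and 7.09 in FGF2/Activin, 7.18, 4.51 and 6.6 in PD032, 2.64, 4.34 and 2.03 under Aurka inh, and 5.39, 5.54 and 5.62 in the combination. Every 2iLif library lay far above every library of the other media. Against 2iLif, Bmp4 fell in all 4 other media: the log2 fold change was -2.98 for FGF2/Activin (SE 0.16, edgeR adjusted p = 1.3e-10), -3.13 for PD032 (8.8e-11), -4.20 for Aurka inh (1.4e-11) and -3.29 for the combination (1.7e-10). FGF2/Activin, PD032 and the combination followed in that order with overlapping libraries between neighbours, and Aurka inh was lowest. PD032 exceeded Aurka inh by a log2 fold change of 1.06 (edgeR adjusted p = 0.00042), and the combination exceeded Aurka inh by 0.91 (0.0024). The combination and PD032 did not differ past the threshold (log2 -0.15, 95% interval -0.51 to 0.20, edgeR adjusted p = 0.51). With the second library of each inhibitor group left out, this difference was -0.32 (0.025). The summed level of 9 primitive endoderm markers was also highest in 2iLif, at 189 to 204 CPM against 13.3 to 37.9 in the other media. Lama1 alone held 188 CPM of that sum in 2iLif, and no marker of the list was at 0 in a whole group. Of its transcription factors, Gata4 (1.49 CPM in 2iLif, 0.241 to 0.58 elsewhere) and Sox7 (3.44 in 2iLif, 0.185 to 1.9 elsewhere) were also highest in 2iLif. Gata6, Sox17 and Foxa2 were not, with group means of at most 0.25, 0.301 and 0.524 CPM. Among the other markers, Pdgfra was highest in 2iLif (0.84 CPM), whereas Dab2 was lowest there (0.218, against 3.86 in FGF2/Activin). Col4a1 was lower in 2iLif (4.07 CPM) than in FGF2/Activin (14.7) and PD032 (12.4). The part of these markers in the Bmp4 levels was not tested.

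Bmp7, which encodes a ligand of the same family that shares receptors with Bmp4, was highest in PD032 on average, with a wide spread there. Its libraries held 3.25, 3.18 and 3.58 CPM in 2iLif, 2.95, 2.42 and 1.6 in FGF2/Activin, 9.64, 3.76 and 9.95 in PD032, 5.46, 3.27 and 5.67 under Aurka inh, and 2.39, 1.46 and 2.46 in the combination. In each inhibitor group replicate 2 was the lowest, at 0.384 times the mean of the other libraries in PD032, 0.588 times under Aurka inh and 0.603 times in the combination. Bmp7 fell in the combination against PD032 by 1.88 on the log2 scale (SE 0.32, edgeR adjusted p = 0.00017) and against Aurka inh by 1.19 (0.012, and 0.054 without Aurka inh replicate 3). It rose in PD032 against 2iLif, by a log2 fold change of 1.23 (edgeR adjusted p = 0.0031). PD032 against Aurka inh missed the threshold, at log2 0.69 (edgeR adjusted p = 0.065). With replicate number as a block that difference was 0.68 (0.0003), and without PD032 replicate 2 it was 1.01 (0.00092). FGF2/Activin against 2iLif did not pass (log2 -0.52, 95% interval -1.27 to 0.22, edgeR adjusted p = 0.24). Neither did Aurka inh against 2iLif (log2 0.54, 0.18) or the combination against 2iLif (log2 -0.65, 0.16).

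Bmpr1a, the type I receptor gene, varied little, with a highest group mean 1.4 times the lowest. Its libraries held 79.6 to 83.9 CPM in 2iLif, 112 to 118 in FGF2/Activin, 98.4 to 108 in PD032, 96.8 to 107 under Aurka inh and 88.9 to 101 in the combination. FGF2/Activin lay above all other libraries and 2iLif below them, while the 3 inhibitor groups overlapped. Against 2iLif, Bmpr1a rose by 0.49 on the log2 scale in FGF2/Activin (SE 0.06, edgeR adjusted p = 2.3e-06), by 0.33 in PD032 (0.00017), by 0.29 in Aurka inh (0.00056) and by 0.18 in the combination (0.02). The rise in the combination had an adjusted p of 0.084 without 2iLif replicate 3 and 0.12 without replicate 1 of the combination. The combination against PD032 missed the threshold (log2 -0.15, edgeR adjusted p = 0.053), and passed at -0.16 (0.0022) with a replicate block, at -0.20 (0.011) without replicate 1 of the combination and at -0.18 (0.027) without PD032 replicate 2. Against Aurka inh the combination was at -0.11 (edgeR adjusted p = 0.16), at -0.13 (0.012) with the block and at -0.19 (0.017) without its replicate 1.

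Smad6, the inhibitory Smad that acts mainly on BMP receptors, was highest in FGF2/Activin. Its libraries held 2.47, 3.18 and 3.19 CPM in 2iLif, 4.65, 5.62 and 6.13 in FGF2/Activin, 2.7, 2.36 and 2.19 in PD032, 1.23, 1.7 and 1.14 under Aurka inh, and 1.01, 1.36 and 1.33 in the combination. The libraries of 2iLif and PD032 overlapped, as did those of Aurka inh and the combination. Smad6 rose in FGF2/Activin against 2iLif (log2 0.89, SE 0.18, edgeR adjusted p = 0.00029). It fell by 0.97 on the log2 scale in the combination against PD032 (edgeR adjusted p = 0.00096). Aurka inh was below 2iLif at log2 -1.13 (edgeR adjusted p = 0.00019), and the combination at -1.25 (0.00011). PD032 exceeded Aurka inh by 0.85 (edgeR adjusted p = 0.0028). PD032 against 2iLif did not pass (log2 -0.29, 95% interval -0.65 to 0.08, edgeR adjusted p = 0.19), nor did the combination against Aurka inh (log2 -0.12, 95% interval -0.56 to 0.32, 0.75).

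Bambi, which encodes a pseudoreceptor that dampens BMP and other TGF-β family signals, passed in none of the 7 comparisons. Its libraries held 10.2 to 12 CPM in 2iLif, 11.4 to 13.1 in FGF2/Activin, 11.7 to 12.7 in PD032, 8.91 to 11.2 under Aurka inh and 9.62 to 12.5 in the combination. Every group overlapped its neighbours in the order of the means, whose highest was 1.21 times the lowest. The widest difference was PD032 against Aurka inh, at log2 0.26 (95% interval 0.04 to 0.49, edgeR adjusted p = 0.073). It passed with a replicate block (log2 0.25, 0.024) and with scaling by library size alone (log2 0.29, 0.049). For FGF2/Activin against 2iLif the interval was -0.15 to 0.32.

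**Figure D1:**
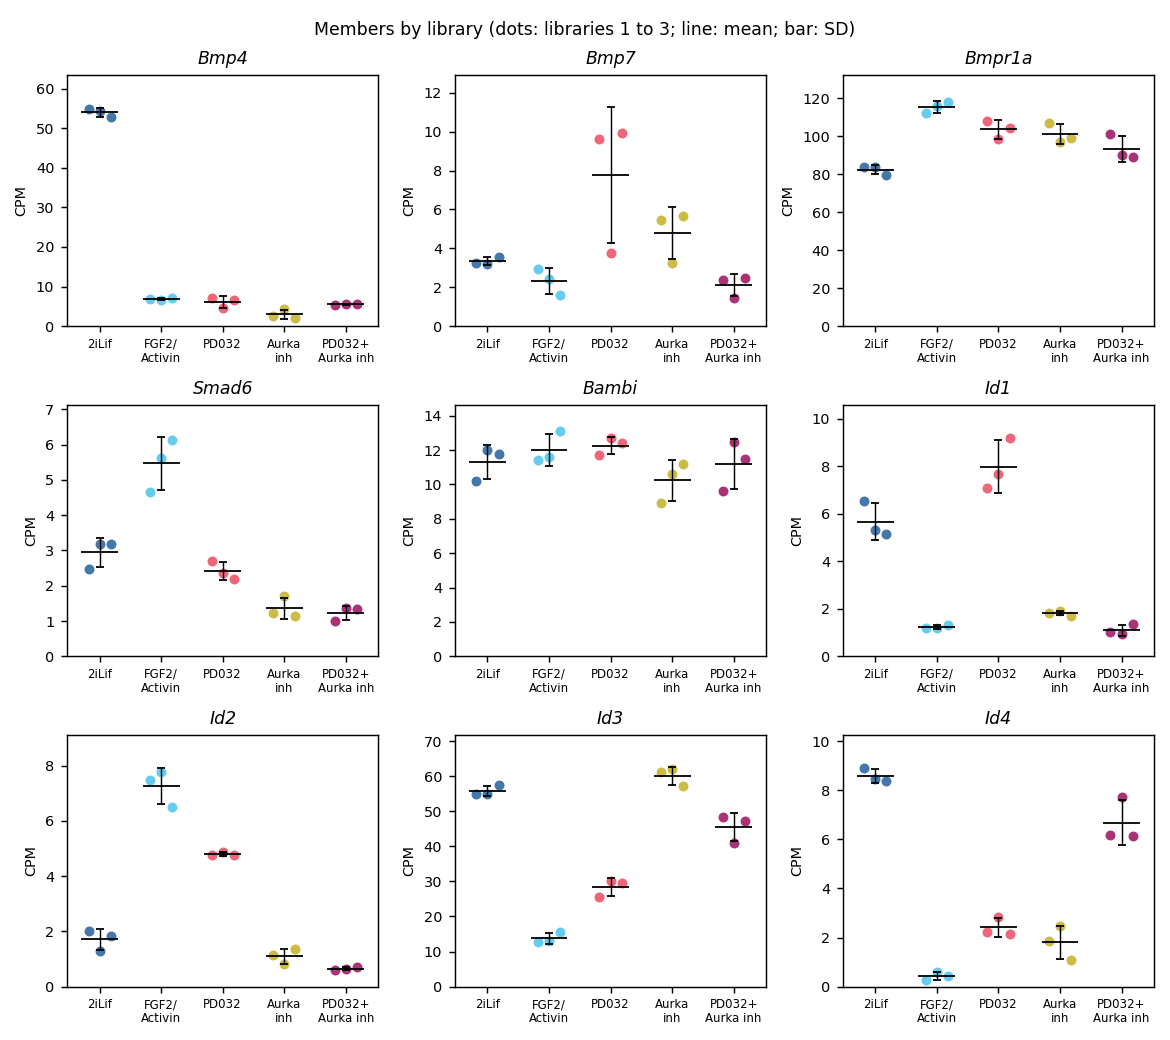
CPM (vertical axes, linear from 0) of each of the 9 genes in the 5 media (horizontal axes); dots are the 3 libraries of a group in replicate order, the line is the mean and the bar the SD. Bmp4 stands near 54 CPM in 2iLif alone, the Id genes differ in which media are high, and Bambi stays between 8.91 and 13.1 CPM throughout.

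The Id genes did not share a pattern. Id1 was highest in PD032, Id2 in FGF2/Activin, Id3 in Aurka inh and 2iLif, and Id4 in 2iLif. The ratio of the highest to the lowest group mean was 7.2 for Id1, 11.3 for Id2, 4.36 for Id3 and 20.1 for Id4.

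Id1, often used as a readout of BMP signalling, held 6.56, 5.34 and 5.14 CPM in 2iLif, 1.18, 1.21 and 1.34 in FGF2/Activin, 7.08, 7.68 and 9.22 in PD032, 1.82, 1.89 and 1.72 under Aurka inh, and 1.01, 0.94 and 1.37 in the combination. PD032 and 2iLif were high and the other 3 media low, with no overlap between these sets. Id1 fell in the combination against PD032 by 2.83 on the log2 scale (SE 0.17, edgeR adjusted p = 1.7e-09), and PD032 exceeded Aurka inh by 2.14 (2.2e-08). Against 2iLif, Id1 fell in FGF2/Activin (log2 -2.19, edgeR adjusted p = 2.9e-08), Aurka inh (-1.65, 4.3e-07) and the combination (-2.34, 2.8e-08), and rose in PD032 (0.49, 0.0063). The combination was lower than Aurka inh by a log2 difference of -0.68 (edgeR adjusted p = 0.015). That call was lost in a fit of the 6 libraries alone (-0.72, 0.051), without replicate 2 of the combination (-0.58, 0.058) and with the second library of each inhibitor group left out (-0.56, 0.11). FGF2/Activin and the combination overlapped at the low end.

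Id2, which is also widely expressed in differentiating cells, held 2.01, 1.29 and 1.82 CPM in 2iLif, 7.47, 7.79 and 6.52 in FGF2/Activin, 4.75, 4.89 and 4.76 in PD032, 1.14, 0.818 and 1.35 under Aurka inh, and 0.598, 0.627 and 0.708 in the combination. FGF2/Activin stood above PD032, and PD032 above the remaining media. Id2 rose against 2iLif in FGF2/Activin (log2 2.08, SE 0.17, edgeR adjusted p = 2.2e-08) and in PD032 (1.48, 2e-06). It fell by 2.88 in the combination against PD032 (SE 0.19, edgeR adjusted p = 7.1e-09), and PD032 exceeded Aurka inh by 2.10 (1.3e-07). The combination was also below 2iLif, at log2 -1.39 (edgeR adjusted p = 0.00014). The libraries of 2iLif and Aurka inh overlapped, and their difference of -0.61 (edgeR adjusted p = 0.024) ranged up to an adjusted p of 0.15 over the settings run. That highest value came without 2iLif replicate 1, and the p was 0.081 without 2iLif replicate 3 and 0.11 without Aurka inh replicate 2. The combination against Aurka inh, at -0.78 (edgeR adjusted p = 0.02), had 0.052 and 0.14 without Aurka inh replicates 1 and 3 and 0.057 without replicate 1 of the combination.

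Neuroectoderm markers (7 genes, summed) were also higher in FGF2/Activin and PD032, at 62 to 67 and 87.7 to 108 CPM, than in 2iLif, at 8.71 to 11.1, or the combination, at 22 to 32.3, with 34.8 to 60.4 in Aurka inh. Nes (7.31 CPM in 2iLif, 46.3 in FGF2/Activin, 34.9 in PD032) and Dll1 (0.199, 14.7 and 48.3) made up most of the sum in FGF2/Activin and PD032. The factors of the list did not share that order: Sox1 was highest in 2iLif (2.38 CPM, against 1.42 in FGF2/Activin and 2.24 in PD032), and Pax6 was higher in the combination (4.22) than in FGF2/Activin (0.861). In Aurka inh and the combination, Nes (39 and 19.6 CPM) and Dll1 (8.38 and 3.05) stood above 2iLif, whereas the Id2 means were below it. Zic1 and Neurog2 were at 0 counts in 2iLif and in the combination, and at most 0.301 and 0.278 CPM on average elsewhere. Their part in the Id2 levels was not tested.

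Id3 was the most abundant Id gene per length. Its change was opposite to those of Id1 and Id2 in the combination against PD032 and in PD032 against Aurka inh, and the same in the combination against Aurka inh, where all 3 were lower. Its libraries held 55.1, 55 and 57.6 CPM in 2iLif, 12.8, 13 and 15.5 in FGF2/Activin, 25.5, 30.1 and 29.6 in PD032, 61.2, 62.1 and 57.2 under Aurka inh, and 48.4, 41.1 and 47.4 in the combination. Aurka inh and 2iLif overlapped at the top, and the combination, PD032 and FGF2/Activin followed without overlap. Id3 rose in the combination against PD032 (log2 0.69, SE 0.082, edgeR adjusted p = 4.4e-06), where Id1 and Id2 fell. PD032 was lower than Aurka inh at log2 -1.08 (edgeR adjusted p = 2.4e-08), and the combination lower than Aurka inh at -0.40 (0.00097). Against 2iLif, Id3 fell in FGF2/Activin (log2 -2.02, edgeR adjusted p = 1.1e-11), PD032 (-0.98, 3.5e-08) and the combination (-0.29, 0.0068). Aurka inh against 2iLif did not pass (log2 0.11, 95% interval -0.05 to 0.26, edgeR adjusted p = 0.27).

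Id4, best known from neural development, held 8.9, 8.45 and 8.4 CPM in 2iLif, 0.262, 0.574 and 0.447 in FGF2/Activin, 2.24, 2.85 and 2.14 in PD032, 1.86, 2.45 and 1.09 under Aurka inh, and 6.17, 7.73 and 6.16 in the combination. The combination stood next to 2iLif, whereas PD032 and Aurka inh, each alone, overlapped at a lower level. The FGF2/Activin value rests on 20 counts in all, against 391 in 2iLif. Id4 rose in the combination against PD032 (log2 1.48, SE 0.20, edgeR adjusted p = 1.5e-05) and against Aurka inh (1.90, 3.7e-06). Against 2iLif it fell in FGF2/Activin (log2 -4.30, SE 0.28, edgeR adjusted p = 1e-09), PD032 (-1.84, 6.5e-07) and Aurka inh (-2.27, 1.4e-07). The combination against 2iLif did not pass (log2 -0.36, edgeR adjusted p = 0.1), although the libraries did not overlap, and it passed at -0.36 (0.035) in a fit of those 6 libraries alone, at -0.48 (0.05) without replicate 2 of the combination and at -0.48 (0.0028) with the second library of each inhibitor group left out. PD032 against Aurka inh did not pass (log2 0.43, edgeR adjusted p = 0.15), and was 0.67 (0.032) without Aurka inh replicate 2.

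**Figure D2:**
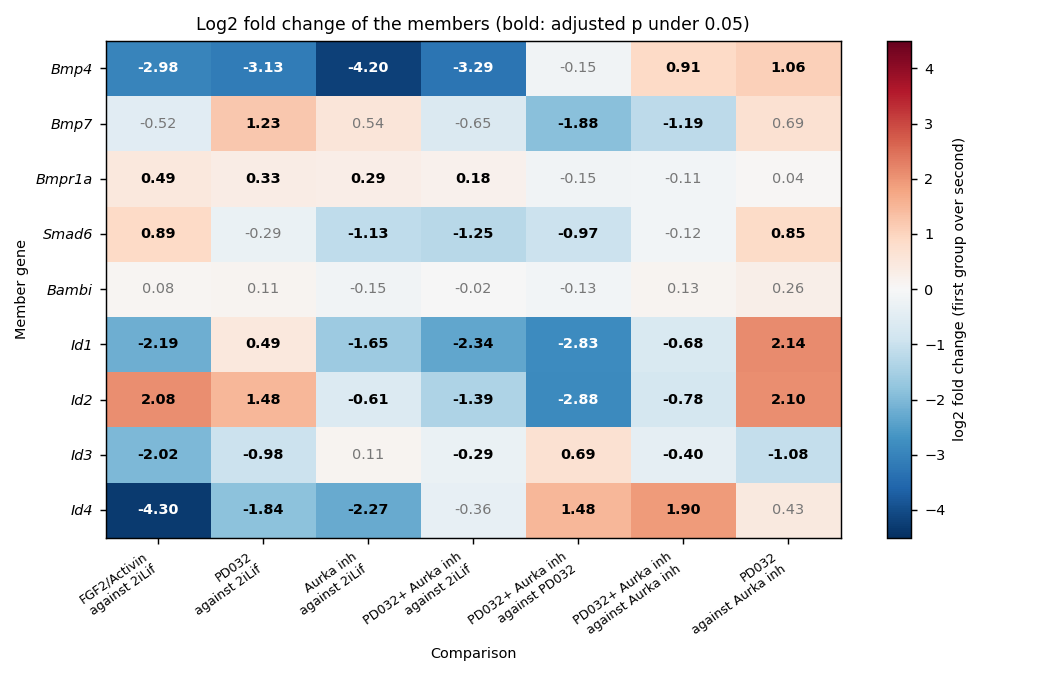
Log2 fold change (colour and printed value) of the 9 genes (rows) in the 7 comparisons (columns), first group over second; bold values passed at an adjusted p under 0.05. Adding Aurka inh to PD032 lowered Id1 (-2.83) and Id2 (-2.88) and raised Id3 (0.69) and Id4 (1.48).

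Levels of different genes were compared per length, as CPM per kb of exon in GENCODE M21, which takes every annotated exon as transcribed. The 4 Id genes together came to 39 ± 0.881 CPM per kb in 2iLif, 36.1 ± 1.59 in Aurka inh, 28.4 ± 2.09 in the combination, 25.3 ± 2.18 in PD032 and 11.8 ± 0.656 in FGF2/Activin. Id3 made up the largest share of this total in every group: 80% ± 1.92 in 2iLif, 64.7% ± 3.41 in FGF2/Activin, 62.5% ± 1.51 in PD032, 93.1% ± 0.109 under Aurka inh and 89.5% ± 1.33 in the combination. Id1 came next in PD032, with 27.2% ± 2.11, and Id2 in FGF2/Activin, with 25.3% ± 3.48. The share of Id1 was 4.32% ± 0.0482 in Aurka inh and 3.35% ± 0.576 in the combination. Id4 took 6.18% ± 1.33 in the combination and 5.71% ± 0.172 in 2iLif, and at most 2.83% in any library of the other media. The ligand Bmp4 stood at 24 CPM per kb in 2iLif, below Id3 at 31.2, and the receptor Bmpr1a at 13.

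**Figure D3:**
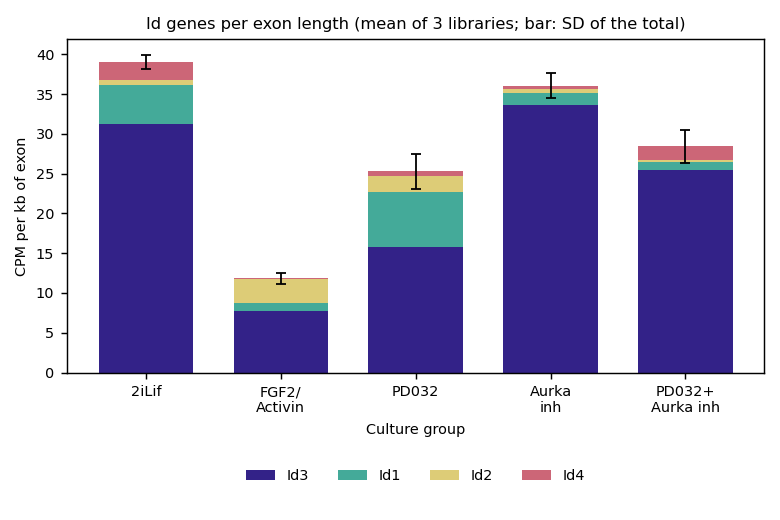
Stacked bars give the mean CPM per kb of exon (vertical axis, from 0) of Id3, Id1, Id2 and Id4 in each medium (n = 3); the black bar is the SD of the total. The total runs from 11.8 in FGF2/Activin to 39 in 2iLif, and Id3 is the largest part of every bar.

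The genes most like each member were sought among 8623 protein-coding genes with a mean of at least 10 CPM, by the root mean square difference of log2 CPM centred on each gene's mean over the 15 libraries. The libraries share medium and batch, so likeness is a description. Id4 lay closest to Nanog (0.30), Esrrb (0.32) and Zfp42 (0.33), all genes of the naive state, against an SD of 1.48 of Id4 itself. Like Id4, Nanog was highest in 2iLif (530 CPM), next in the combination (385), lower in PD032 (121) and Aurka inh (119) and lowest in FGF2/Activin (40.4). Id3 lay closest to Exoc6b (0.19, SD of Id3 0.79), which encodes a subunit of the exocyst that tethers secretory vesicles, then to Fut10 and B4galt6. Id2 lay closest to Gprc5b (0.37, SD 1.25), with 32.6 CPM in FGF2/Activin and 25.1 in PD032 against 7.83 or less in the other media. For Id1 the nearest gene was Anxa2 (0.63, SD 1.13). Bmp4 lay closest to Parvb (0.29, SD 1.44), an actin-binding partner of integrin-linked kinase, which held 109 CPM in 2iLif and at most 10.9 elsewhere. Smad6 lay closest to Crb3 (0.26, SD 0.77), a gene of apical polarity, and to Tmem125 (0.26). Bmp7 lay closest to Npepl1 (0.43, SD 0.76). Bmpr1a lay 0.05 from Ctr9, Gnai3 and Bub1 with an SD of 0.17, and Bambi 0.09 from Cyth2 with an SD of 0.15, so their nearest genes share mainly a flat profile.

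Counted by comparison, FGF2/Activin against 2iLif had 3 members higher (background 33.3% of genes tested) and 4 lower (32.6%), or 7 of 9 against 65.9% in either direction. Past 2-fold as well, 5 of 9 were called against 27.6%. The median log2 fold change was -0.52 for the members and -0.01 for all genes. The combination against PD032 had 2 higher (20.0%) and 4 lower (23.8%), or 6 of 9 against 43.7%, with 4 of 9 past 2-fold against 14.0% and medians of -0.15 and 0.01. The combination against Aurka inh had 2 higher (18.6%) and 4 lower (16.3%), or 6 of 9 against 34.9%, with 2 of 9 past 2-fold against 9.07%. PD032 against Aurka inh had 4 higher (25.8%) and 1 lower (19.7%), or 5 of 9 against 45.5%, with 4 of 9 past 2-fold against 11.7%.

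Against 2iLif, and across the naming styles, PD032 had 4 members higher (32.1%) and 3 lower (30.9%), Aurka inh 1 higher (28.9%) and 5 lower (29.5%), and the combination 1 higher (23.8%) and 5 lower (23.8%). In either direction these were 7, 6 and 6 of 9, against 63.0%, 58.4% and 47.6% of all genes. In each of these 3 comparisons 4 of 9 passed 2-fold, against 23.7%, 21.7% and 14.9% of all genes. The median log2 fold changes of the members were 0.11, -0.61 and -0.65, and that of all genes 0.01 in each. These 3 comparisons and that of FGF2/Activin share the 2iLif libraries. No test sets these shares apart from those of all genes.

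Around these members, 65 other genes of the pathway were followed in 7 lists, and 40 were tested. The 25 others were too low, among them the ligand Bmp2 (at most 0.271 CPM in any library), the antagonists Nog (0.262) and Grem1 (0.26) and the targets Msx2 (0.197) and Atoh8 (0.197), named here for their role. Of the 40, 24 were higher and 7 lower in FGF2/Activin against 2iLif (77.5% called), with a median log2 fold change of 0.49. In the combination against PD032, 4 were higher and 16 lower (50%, median -0.16), and against Aurka inh 8 were higher and 10 lower (45%, median -0.05). PD032 against Aurka inh had 14 higher and 6 lower (50%, median 0.11). Against 2iLif, PD032 had 21 higher and 6 lower (67.5%, median 0.40), Aurka inh 12 and 10 (55%, median 0.15), and the combination 11 and 10 (52.5%, median 0.05). Over all genes tested, shares called either way were 65.9%, 43.7%, 34.9%, 45.5%, 63.0%, 58.4% and 47.6% in the order of these 7 comparisons. Most such shares of the list were near them. Higher genes made up 33.3%, 20.0%, 18.6%, 25.8%, 32.1%, 28.9% and 23.8% of all genes in that order. Lower genes made up 32.6%, 23.8%, 16.3%, 19.7%, 30.9%, 29.5% and 23.8%. The list leaned more to higher than all genes did in FGF2/Activin and PD032 against 2iLif and in PD032 against Aurka inh. It leaned more to lower in the combination against PD032. The splits of the other comparisons were more even, and none was tested.

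Of the ligands other than the members, 4 of 13 were high enough to test. In FGF2/Activin against 2iLif 2 rose and 2 fell, where 33.3% and 32.6% of all genes did. Receptors and co-receptors had 9 of 10 tested. In PD032 against 2iLif 7 of them rose, none by 2-fold or more, and none fell, against 32.1% and 30.9% of all genes. The combination against 2iLif had 6 higher and 1 lower, against 23.8% of all genes each way. Aurka inh against 2iLif had 4 higher and 1 lower, against 28.9% and 29.5%. These comparisons run across the naming styles. In the combination against PD032 1 rose and 3 fell, a share of 44.4% called that was near the 43.7% of all genes. Rgma, a BMP co-receptor, had the largest of those falls, from 19.4 ± 3.78 to 4.79 ± 0.611 CPM (log2 -2.03, edgeR adjusted p = 4.7e-08), and PD032 also exceeded Aurka inh, at 5.24 ± 0.544 CPM, by log2 1.89 (1.1e-07).

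Among the Smads that carry the signal, all 4 were tested. Smad9, like Bmp4, was high in 2iLif alone, with 6.74 ± 0.232 CPM there and 0.213 ± 0.16 in FGF2/Activin, 0.123 ± 0.0424 in PD032, 0.235 ± 0.0703 under Aurka inh and 0.243 ± 0.2 in the combination. Its log2 fold changes against 2iLif were -4.93, -5.68, -4.84 and -4.82 in that order, all lower, and the highest edgeR adjusted p was 6.1e-09. Smad1, named here for its role, stayed between 22.8 ± 0.797 and 25.5 ± 0.668 CPM over the 5 media. Smad5, named for the same reason, was lowest in 2iLif, at 41 ± 3.46 CPM, and highest in PD032, at 58.6 ± 4.43. Against 2iLif it rose in PD032 (log2 0.52, edgeR adjusted p = 9.2e-05), Aurka inh (0.33, 0.0046) and FGF2/Activin (0.26, 0.017). Among inhibitor groups none of the 4 Smads passed, where 34.9% to 45.5% of all genes did.

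Extracellular antagonists had 7 of 16 tested. In the combination against PD032 5 fell and none rose, against 23.8% and 20.0% of all genes. In PD032 against Aurka inh 5 were higher and 1 lower, against 25.8% and 19.7%. Chrd, which encodes chordin, a protein that keeps BMPs from their receptors, fell in the combination from 5.37 ± 0.639 to 0.752 ± 0.0749 CPM against PD032 (log2 -2.83, SE 0.18, edgeR adjusted p = 4.2e-09). Aurka inh lay between, at 1.63 ± 0.374 CPM, and the combination was lower than it at log2 -1.12 (edgeR adjusted p = 0.00078). Fst, which encodes follistatin, a binder of activins and some BMPs, was lower in the combination, at 19.3 ± 6.17 CPM, than in Aurka inh, at 44.7 ± 3.96 (log2 -1.22, edgeR adjusted p = 0.00011). Chrdl1, a chordin relative, had 56 counts in FGF2/Activin against 1 in 2iLif, a count ratio of 54.7 (95% interval 9.43 to 2200, counting error only).

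Intracellular inhibitors had all 9 genes tested, and in FGF2/Activin against 2iLif 7 rose and 1 fell, against 33.3% and 32.6% of all genes. Smad7, the inhibitory Smad of BMP and TGF-β receptors and the close relative of Smad6, was lowest in PD032, at 2.82 ± 0.359 CPM, against 41.5 ± 3.04 in 2iLif (log2 -3.86, SE 0.13, edgeR adjusted p = 4.9e-13). It rose in the combination against PD032 to 16.4 ± 2.45 CPM (log2 2.53, edgeR adjusted p = 3.8e-10), where Smad6 fell. Aurka inh, at 8.88 ± 0.947 CPM, exceeded PD032 (log2 of PD032 against Aurka inh -1.65, edgeR adjusted p = 1.2e-07) and was below 2iLif (-2.22, 8.3e-11). Skil, a repressor of Smad-driven transcription, rose in all 4 other media against 2iLif, at 25.2 ± 0.858 CPM, most in FGF2/Activin, to 483 ± 19.4 (log2 4.26, edgeR adjusted p = 3.3e-13). It rose in PD032 to 181 ± 19.3 (log2 2.85, edgeR adjusted p = 3.8e-11), in Aurka inh to 173 ± 30.3 (2.78, 6.3e-11) and in the combination to 111 ± 17.4 (2.14, 2.9e-09). Pmepa1, a membrane protein that restrains Smad signalling, fell against 2iLif, at 9.19 ± 0.791 CPM, in PD032 to 2.7 ± 1.34 (log2 -1.80, edgeR adjusted p = 3.5e-06), in Aurka inh to 0.904 ± 0.301 (-3.31, 3.2e-08) and in the combination to 1.14 ± 0.148 (-3.02, 9.1e-08). In FGF2/Activin it rose to 24.7 ± 0.853 CPM (log2 1.43, edgeR adjusted p = 5.1e-06).

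Other BMP targets had 4 of 10 tested, and all 4 fell in the combination against PD032, where 23.8% of all genes did. Low counts limit Msx1 (57 in PD032, 11 in the combination) and Gata3 (39 and 8) there. Dusp9, a phosphatase of MAP kinases that BMP induces in embryonic stem cells, was at 202 ± 4.97 CPM in FGF2/Activin against 6.45 ± 0.715 in 2iLif (log2 4.97, SE 0.15, edgeR adjusted p = 1.4e-13). Among inhibitor groups it fell in the combination, at 2.82 ± 0.586 CPM, against PD032, at 9.49 ± 1.37 (log2 -1.75, edgeR adjusted p = 1.3e-06), and against Aurka inh, at 13.6 ± 3.33 (-2.28, 1.1e-07). Msx1, a homeobox target of BMP, rose in FGF2/Activin from 0.197 ± 0.0626 to 4.4 ± 0.258 CPM (log2 4.43, edgeR adjusted p = 1.7e-08). Zfp423, a zinc finger partner of Smads, was kept in this list of targets. It fell in the combination to 5.7 ± 1.59 CPM from 12.3 ± 3.65 in Aurka inh (log2 -1.10, edgeR adjusted p = 0.00063). Dusp9, Msx1 and Id2 were thus high in FGF2/Activin, where Id1, Id3, Id4 and Bmp4 were low.

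**Figure D4:**
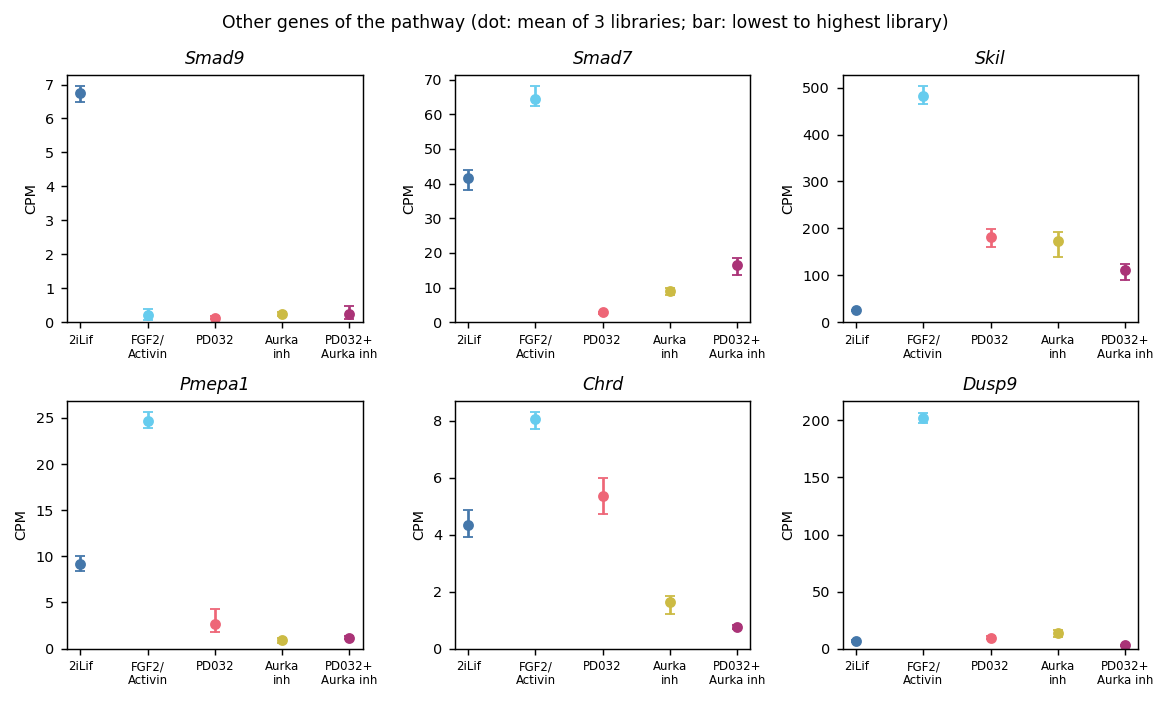
CPM (vertical axes, from 0) of 6 other genes of the pathway in the 5 media (horizontal axes); dots are means of 3 libraries and bars run from the lowest to the highest library. Smad9 is near 0 outside 2iLif, and Smad7 and Chrd change in opposite directions between PD032 and the combination.

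The 3 E proteins, the partners of Id proteins, were all tested, and at least 1 passed in each comparison, without a difference of 2-fold or more among the inhibitor groups. The share called was 33.3% in PD032 against Aurka inh, against 45.5% of all genes. It was 66.7% in every other comparison, where 34.9% to 65.9% of all genes were called. Named here for their role, Tcf3 stayed between 204 ± 13.4 CPM in the combination and 245 ± 9.65 in PD032. Tcf12 was lowest in 2iLif, at 31 ± 3.29 CPM, and highest in FGF2/Activin, at 62.8 ± 1.53, and Tcf4 was highest in 2iLif, at 107 ± 7.15, and lowest in FGF2/Activin, at 51.5 ± 0.217. Tcf12 rose there by a log2 fold change of 1.02 (edgeR adjusted p = 2.2e-08) and Tcf4 fell by 1.06 (5.4e-09).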

How the data were processed

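The authors deposited whole-number counts per Ensembl gene for the 15 libraries, from reads aligned with STAR to mm10, per the submitters' processing notes, which also name DESeq2. For the counting tool, its annotation and versions, and whether strand was used, nothing is given in the sources used here. The authors' normalized log2 table was not used here.

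Genes were named by identifier (49326 of 49585). The filter filterByExpr of edgeR 4.0.16 (R 4.3.3) kept 15223 genes. Counts were scaled by TMM and fitted over all 15 libraries in 1 quasi-likelihood model of the 5 groups (5.73 prior degrees of freedom), and p-values were adjusted by Benjamini-Hochberg within each of 7 comparisons. SE is the fold change over the root of the F statistic, and 95% intervals follow from it. For log2 CPM the prior count was 2. The fit was also run on simulated counts, in which far fewer genes changed than were called here and each gene had the same spread in all groups. That run cannot speak to the scaling or to the shared spread in these data. No 2 replicates were alike within sampling noise (chi-squared over its degrees of freedom 1.24 to 19.2).

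Members and lists were chosen with earlier results of these data known. Pathway genes named were, per comparison, up to 4 of those that passed with the largest fold change and at least 1 CPM in the higher group. Other genes named are said to be so for their role. Marker lists of trophoblast (35 to 122 CPM summed, over all libraries), mesoderm (6.91 to 22.6) and fibroblasts (2.99 to 22.7) were read too.

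Replicate numbers come from the titles. Over 8944 genes, deviations from the group mean were correlated between same-numbered libraries. Among inhibitor groups r ran from 0.396 to 0.756, and between 2iLif and FGF2/Activin from -0.0494 to 0.0386. Unlike-numbered libraries of inhibitor groups ran from -0.754 to 0.489. The highest of these, Aurka inh replicate 1 with PD032 replicate 3, exceeded replicate 3 with replicate 3 of those groups (0.396). The main fit paired no libraries. The replicate block was an alternative and was run in every comparison, although only the inhibitor groups showed such pairing. The alternatives were DESeq2 1.42.0, other scaling, no filter, fits of 6 libraries, a replicate block, each library left out and a 2-fold rule.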

Additional observations from a re-analysis of the deposited data

How the results depend on the processing

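Of 810 values of single members under alternatives, 757 kept their direction and side of the threshold, 18 lost the call, 29 gained it and 6 changed sign. All 360 values of named pathway genes kept both, but these genes had been picked for large fold changes that passed, so this says little of other pathway genes. The sign changes were of differences that had not passed: with single libraries left out, Bambi in FGF2/Activin against 2iLif ranged from -0.02 (without 2iLif replicate 1) to 0.12, Smad6 between the combination and Aurka inh from -0.22 to 0.05 (without Aurka inh replicate 2), and Bambi in the combination against 2iLif from -0.10 to 0.07 (without replicate 1 of the combination), and the last was 0.01 with library size alone. Requiring 2-fold as well left 4207 genes in FGF2/Activin against 2iLif, 2129 in the combination against PD032, 1381 in the combination against Aurka inh, 1787 in PD032 against Aurka inh, and 3604, 3311 and 2267 in PD032, Aurka inh and the combination against 2iLif. Of the pathway list it left 19, 10, 7, 11, 11, 9 and 9 in the same order, and of the members 2 in the combination against Aurka inh and 4 in PD032 against 2iLif. A fit of the 6 libraries alone called 3480 genes in the combination against Aurka inh, where the fit over 15 called 5311. The smaller fit uses fewer samples and takes the spread from these groups alone. Their biological coefficients of variation were 8.84% (combination) and 11% (Aurka inh), against 1.78% in FGF2/Activin and 4.53% in 2iLif. The part of each in the lower count was not tested. With the replicate block, members called numbered 7 in the combination against PD032, 7 against Aurka inh and 7 in PD032 against Aurka inh, where 6, 6 and 5 passed without it. Calls over all genes rose as well, from 6660 to 8533, from 5311 to 7181 and from 6928 to 8648 in that order. They also rose against 2iLif, from 10025 to 10790 in FGF2/Activin and from 7243 to 7867 in the combination. The block changed no other member's call among inhibitor groups than those given above. Where numbers do not pair, it moved members called from 7 to 8 in FGF2/Activin against 2iLif, where Bmp7 passed (-0.52, 0.021; it also passed in the fit of those 6 libraries, -0.52, 0.02, and with no filter, -0.53, 0.039), and from 6 to 8 in the combination against 2iLif, where Id4 (-0.37, 0.041) and Bmp7 (-0.68, 0.048) passed. Bmp7 against 2iLif, which had not passed for Aurka inh or the combination, passed under some settings: for Aurka inh the adjusted p ran from 0.00033 to 0.38 and for the combination from 0.011 to 0.35. The second library of each inhibitor group was left out after seeing the data. Low counts limit Id4 in FGF2/Activin (20 counts) and Id2 in the combination (42).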
